A study of Mus musculus with 7 samples.

Results

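The 7 genes described here encode the albumin family of blood plasma proteins (Alb, Afp, Afm and Gc) and the chains of fibrinogen (Fga, Fgb and Fgg). They were chosen by gene name from the 21887 protein-coding genes that the RefSeq table places on mouse chromosomes, and all 7 were found there. Each was set against a map of lamin-associated domains (LADs), the stretches of chromatin that contact the nuclear lamina under the nuclear envelope. The map came from mouse embryonic fibroblasts, named iMEF in the labels and wild type (WT) in the name of the domain list, and no treatment is given. Lamin B1, a protein of the lamina, was profiled in 2 libraries by CUT&RUN, in which an antibody on chromatin recruits a nuclease that releases the DNA around its target. The 2 IgG control libraries, the 2 H3K9me2 libraries (1 for each of 2 antibodies) and the H3K14ac library were not analysed here. The authors deposited 1 merged list of 1437 LADs without scores. Read depth is therefore unknown, no position has a replicate error, and the values below are descriptions without a test. RNA was not measured in these libraries, so neither fibroblast markers nor the activity of the 7 genes could be checked.

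Hepatocytes make these proteins in large amounts, Afp mainly before birth, and secrete them into blood. Albumin carries fatty acids and many other small molecules, alpha-fetoprotein (Afp) is its counterpart of the yolk sac and fetal liver, afamin (Afm) binds vitamin E, and the Gc protein binds vitamin D and actin. The albumin family arose by duplication of an ancestral gene. Thrombin cleaves fibrinogen, which is assembled from the products of Fga, Fgb and Fgg, into the fibrin of blood clots. Apart from Afp, the genes are textbook examples of hepatocyte-restricted transcription. LADs as a class hold few active genes, although many silent genes lie outside them.

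The 7 genes fell into 3 neighbourhoods that differed in their setting. Gc lay deep inside a long LAD, Alb, Afp and Afm lay together in a wide gap between LADs on the same chromosome, and the fibrinogen genes lay in a narrow gap between LADs on chromosome 3. Only Gc, 1 of the 7 genes, was inside a LAD (14.3%). Among all 21130 protein-coding genes between the first and the last LAD of their chromosome, 24.6% had their midpoint in a LAD. On chromosome 5 alone the share was 17.6% of 1220 genes, and on chromosome 3 it was 23.5% of 983 genes. Since neighbouring genes share an interval, the 7 genes amount to 3 placements.

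The sequence before each gene is shown first, because 6 of the 7 genes hold the same short element there although their settings differ. The 150 bases before each annotated start (RefSeq, GRCm38.p6, the build also called mm10) are printed from 5′ to 3′ in the direction of transcription. Capitals mark GTTAAT or its reverse complement ATTAAC.
Gc (chr5:89457899-89458048, minus strand): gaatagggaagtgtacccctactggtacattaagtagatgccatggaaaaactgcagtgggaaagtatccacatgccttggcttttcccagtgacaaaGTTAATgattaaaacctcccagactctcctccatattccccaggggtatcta
Alb (chr5:90460720-90460869, plus strand): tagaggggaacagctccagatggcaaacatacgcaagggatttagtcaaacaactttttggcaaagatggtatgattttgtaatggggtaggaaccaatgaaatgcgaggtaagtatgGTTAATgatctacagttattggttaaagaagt
Afp (chr5:90490564-90490713, plus strand): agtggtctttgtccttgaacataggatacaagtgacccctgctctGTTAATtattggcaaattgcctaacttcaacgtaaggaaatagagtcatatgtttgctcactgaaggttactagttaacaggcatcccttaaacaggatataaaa
Afm (chr5:90518799-90518948, plus strand): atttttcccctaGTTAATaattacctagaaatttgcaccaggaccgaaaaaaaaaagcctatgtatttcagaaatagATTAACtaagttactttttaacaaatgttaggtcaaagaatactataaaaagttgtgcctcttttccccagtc
Fgg (chr3:83007574-83007723, plus strand): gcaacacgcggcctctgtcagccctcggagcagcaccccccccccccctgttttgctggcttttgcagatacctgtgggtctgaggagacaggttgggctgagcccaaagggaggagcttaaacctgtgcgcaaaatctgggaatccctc
Fga (chr3:83026003-83026152, plus strand): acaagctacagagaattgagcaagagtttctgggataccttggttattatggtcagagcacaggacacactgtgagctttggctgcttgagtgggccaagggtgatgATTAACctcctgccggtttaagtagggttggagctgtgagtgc
Fgb (chr3:83049864-83050013, minus strand): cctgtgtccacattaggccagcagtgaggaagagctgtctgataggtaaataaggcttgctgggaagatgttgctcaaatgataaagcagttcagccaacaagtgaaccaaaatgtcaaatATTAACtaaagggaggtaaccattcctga

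GTTAAT occurred on either strand in the 250 bases before the start of 6 of the 7 genes, all except Fgg. The same element was present in 6.43% of all 32851 promoters of that length in the RefSeq table. Afm had 2 copies, with first bases 138 and 73 bases before the start. In the others the first base of the match lay 32 bases before the start of Alb, 52 before Gc, 105 before Afp, 43 before Fga and 29 before Fgb. The element was thus found in the gene inside a LAD, in each gene of the wide gap and in 2 genes of the narrow gap. Among promoters whose start lay inside a LAD 9.44% of 8032 held it, against 5.53% of 23911 outside. In a list of other liver plasma protein genes, 8 of the 49 genes with a promoter in the table had it. Of these 8, 5 (C8a, C8b, Cp, F13b and Serpina7) started inside a LAD, as did 9 of the 49. These are few genes, and C8a and C8b share a LAD. Promoters with a start inside a LAD also had more A+T (median 55.2%, against 45.2% outside). A link between the element and LADs was not tested. The element was picked after the sequences had been read, and a match is a description of letters, not of a bound site.

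Of 11 motifs searched on both strands, the palindrome of GTTAAT and ATTAAC joined across 1 base was in none of the 7 upstream sequences and in 0.00913% of all promoters. The pattern TTGCNNAA of C/EBP factors was present in Alb, Afp, Fga and Fgb, against 9.56% of all promoters and 30.4% of the 56 promoters of the other liver plasma protein genes. For GTTAAT the share in those 56 was 16.1%. CTGGGAA, an interleukin-6 response element known from acute-phase genes, was found in Fgg, Fgb and Gc, against 9.10% of all promoters and 8.93% of the liver promoters. In Fgg its first base lay 13 bases before the start. TATAAA was present in Afp and Afm (12.4% of all promoters and 23.2% of the liver promoters). TATTTA was found in Fgb (12.7% and 17.9%) and CCAAT in Gc, Alb, Afp and Afm (33.8% and 28.6%). The forkhead patterns gave TGTTTGC in Alb and Afp (4.3% and 16.1%) and TGTTTAC in none of the genes (3.17% and 10.7%). The STAT pattern TTCNNNGAA was found in Fga and Fgb (7.02% and 10.7%), and the E-box CACGTG in none (6.02% and 5.36%). No match of one motif overlapped a match of another in these genes.

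Base composition before the start also varied among the genes. Over 250 bases the A+T content was 58.0% for Gc, 60.8% for Alb, 64.0% for Afp and 66.8% for Afm. Fgb had 55.2%, Fga 50.8% and Fgg 43.2%. Promoters with a start inside a LAD had a median of 55.2% and those outside a median of 45.2%, with an upper quartile of 52% outside. Alb, Afp, Afm and Fgb were outside LADs but lay above that quartile, and Fgg lay below the median of its class.

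**Figure D1:**
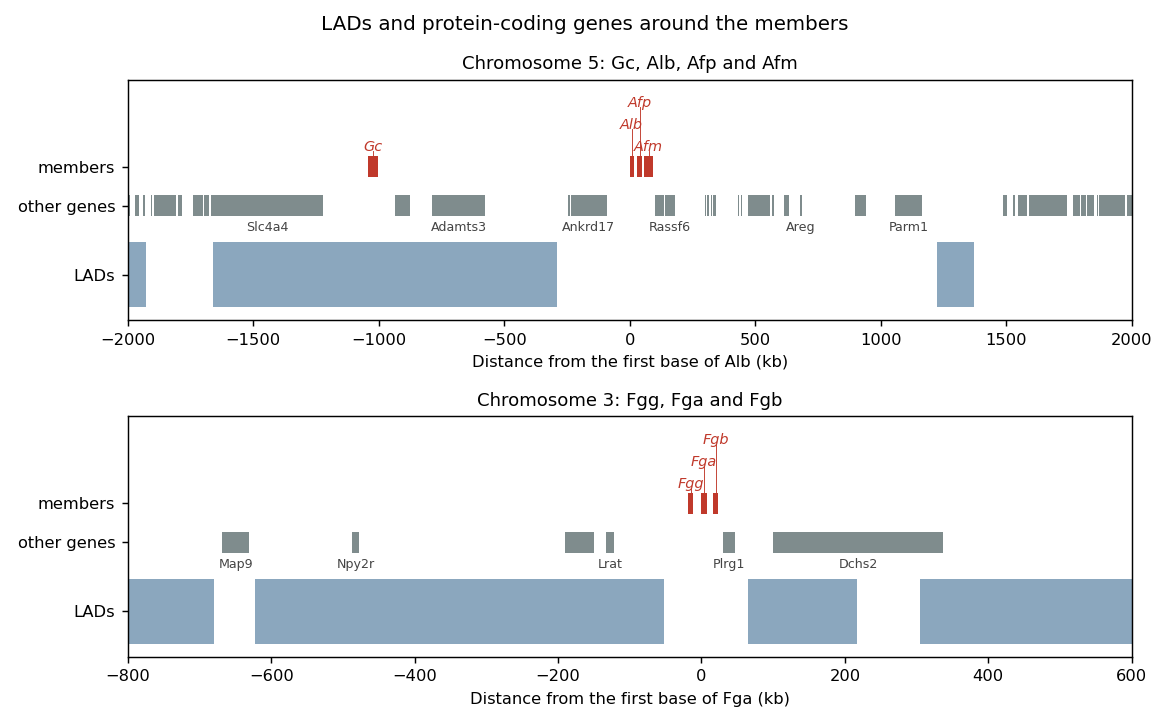
Positions of LADs (blue), the 7 genes (red) and other protein-coding genes (grey), with the horizontal axes in kb from the first base of Alb (upper panel) or of Fga (lower panel). Gc sits in the middle of a LAD of 1.37 Mb, Alb, Afp and Afm in a gap of 1.51 Mb and the fibrinogen genes in a gap of 117.5 kb.

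Gc, the vitamin D-binding member of the family, occupied 89417511 to 89457898 on chromosome 5 (mm10, minus strand, 40.4 kb). The LAD around it ran from 88802031 to 90172026 and measured 1.37 Mb, longer than 77.7% of the 1437 LADs. The gene lay 615.5 kb from the left border and 714.1 kb from the right, so its midpoint was at 46.4% of the LAD. Among the 4764 protein-coding genes that lay whole inside LADs, the median distance to a border was 323.9 kb, with quartiles of 115.1 and 749.3 kb. Gc was deeper than 68.9% of them. Its start site, at the high-coordinate end of the gene, was 655.9 kb from the left border and 714.1 kb from the right.

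The Gc LAD held 4 protein-coding genes, or 2.92 per Mb. Besides Gc these were Slc4a4, a sodium bicarbonate cotransporter, Npffr2, a neuropeptide FF receptor, and Adamts3, a procollagen protease. Slc4a4 crossed the left border, so that its 445.8 kb began outside the domain. Npffr2 lay 588.1 kb inside and 68.9 kb from Gc. Adamts3 was 288.4 kb from the right border and was the last coding gene before it.

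Alb, Afp and Afm were arranged in tandem on the plus strand. Alb occupied 90460870 to 90476602, Afp 90490714 to 90508907 and Afm 90518949 to 90553544 (chromosome 5, mm10). The spacing was 14.1 kb between Alb and Afp and 10.0 kb between Afp and Afm. From Alb to Afm they spanned 92.7 kb, or 6.13% of a gap that ran from 90172027 to 91684521. This gap measured 1.51 Mb and was longer than 84.0% of the 1416 gaps between LADs.

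The tandem array lay toward the side of the gap that faces Gc. Alb was 288.8 kb from the end of the Gc LAD and 1207.9 kb from the next LAD. For Afp the distances were 318.7 and 1175.6 kb, and for Afm 346.9 and 1131.0 kb. Each was at least 3.26 times closer to the LAD that contains its relative Gc than to the LAD on the other side. Among the 15633 protein-coding genes outside LADs without a border in the gene, the median distance was 760.3 kb, with quartiles of 249.9 and 1736.9 kb. Of these genes, 27.5% were nearer to a border than Alb, 29.3% nearer than Afp and 31.0% nearer than Afm. The distances were therefore inside the middle range of genes outside LADs. Gc and Alb were 1003.0 kb apart, with the border of the LAD between them.

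The gap of Alb, Afp and Afm held 20 protein-coding genes, or 13.2 per Mb. Next to the border with the Gc LAD came Cox18, at 42.7 kb, which encodes a mitochondrial assembly factor, and Ankrd17, at 55.1 kb. Albfm1, a further gene of the albumin family, followed Afm after 7.08 kb and was 388.6 kb from the border. The array thus carried 4 tandem albumin family genes outside the LAD, of which Alb lay nearest to it. Rassf6 came next at 431.0 kb. Beyond it were 7 chemokine genes (Cxcl5, Ppbp, Pf4, Cxcl3, Cxcl15, Cxcl1 and Cxcl2), at 587.3 to 731.9 kb from the nearest border. Epgn, Ereg, Areg and Btc, ligands of the epidermal growth factor family, lay at 281.5 to 649.3 kb. Mthfd2l, which encodes a mitochondrial enzyme of folate metabolism, lay between the chemokine genes and Epgn, at 663.2 kb. Parm1 was the last coding gene, 60.5 kb from the far border. The LAD beyond that border measured 0.15 Mb and held no midpoint of a protein-coding gene.

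The fibrinogen genes were placed in another way, close to LADs on both sides. They lay on chromosome 3 in the order Fgg (83007724 to 83015056), Fga (83026153 to 83033627) and Fgb (83042246 to 83049863, mm10). Fgg and Fga were on the plus strand and Fgb on the minus strand, with 11.1 kb between Fgg and Fga and 8.62 kb between Fga and Fgb. The gap around them ran from 82973348 to 83090847 and measured 117.5 kb. The genes spanned 42.1 kb, or 35.9% of it.

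Fgg, which encodes the gamma chain, was 34.4 kb from the LAD on its left and 75.8 kb from the LAD on its right. Fga, for the alpha chain, was near the middle of the gap, with 52.8 kb to the left and 57.2 kb to the right. Fgb, for the beta chain, was 68.9 kb from the left LAD and 41.0 kb from the right one. The 3 nearest-border distances, 34.4 to 52.8 kb, were each smaller than the 288.8 kb of Alb. Of the protein-coding genes outside LADs without a border in the gene, 4.78% were nearer to a border than Fgg, 5.84% nearer than Fgb and 7.61% nearer than Fga. The start sites had similar distances, at 34.4 kb for Fgg, 52.8 kb for Fga and 41.0 kb for Fgb. These positions depend on short gaps being kept apart. With gaps of at most 250 kb joined, Fgg, Fga and Fgb fell inside a LAD and the count rose from 1 to 4 of the 7 genes, while the share of all protein-coding genes in LADs rose from 24.6% to 28.3%.

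The narrow gap held 4 protein-coding midpoints, those of Fgg, Fga, Fgb and Plrg1, which encodes a subunit of the spliceosome and is used by most cell types. Plrg1 began 5.67 kb after Fgb, pointed away from it on the plus strand and ended 18.6 kb from the right border. There were 366 gaps no longer than this one among the 1416 in the list (25.8%), which holds no gap under 52499 bp. The gap was reached through its 3 fibrinogen genes, which fixes most of its gene count, so nothing is read from that count. Over the genome 1.14% of protein-coding genes lay in gaps no longer than 117.5 kb, and 3.65% in gaps of at most 250 kb.

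**Figure D2:**
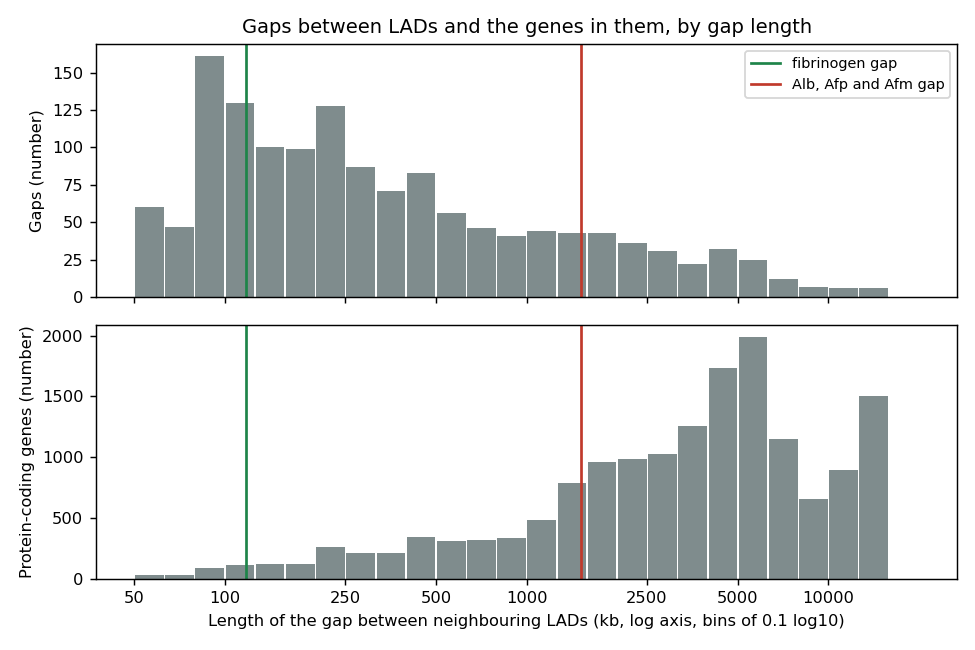
Number of gaps between neighbouring LADs (upper panel) and of protein-coding genes with their midpoint in them (lower panel) by gap length in kb on a log axis, with lines at the fibrinogen gap (green, 117.5 kb) and at the gap of Alb, Afp and Afm (red, 1512.5 kb). The fibrinogen gap lies among the shorter gaps and the gap of Alb, Afp and Afm among the longer ones.

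The LADs on both sides of the fibrinogen gap were unlike in length and content. The left one ran from 82403350 to 82973347 and measured 570.0 kb. It held Npy2r, a neuropeptide Y receptor, Rbm46, which encodes an RNA-binding protein, and Lrat, which esterifies retinol. Lrat lay 69.4 kb inside and 103.7 kb from Fgg, with the border between them. The right LAD, from 83090848 to 83243346, measured 152.5 kb and held the midpoint of 1 coding gene, Gm10710. Dchs2, a large cadherin-type gene of 236.1 kb, began in it and extended across the following gap of 87.5 kb into the next LAD. When LADs under 500 kb were left out, the right LAD was lost and the nearest border to Fgb was the left one, at 68.9 kb.

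LAD cover around the genes, the share of bases that lie in LADs within a window centred on the gene midpoint, separated the 3 neighbourhoods at short range. Within 0.5 Mb on each side it was 100.0% for Gc and 79.5% for each fibrinogen gene. It was 20.3% for Alb, 17.2% for Afp and 13.6% for Afm. The median over all protein-coding genes was 8.75%, with quartiles of 0% and 58.5%. At this scale Fgg, Fga and Fgb, which lay outside LADs, were surrounded by more LAD than 84.2% of coding genes. Alb, Afp and Afm were near the median, above 56.2%, 54.6% and 52.9% of coding genes.

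The order changed with the window. Within 1 Mb the share was 73.3% for Gc, 69.5% for Fgg, 68.5% for Fga and 67.7% for Fgb, against 31.8% to 35.2% for the genes of the wide gap and a median of 24.3% over all coding genes. With LADs under 500 kb left out, the 3 fibrinogen values fell to 28.5%, because much of the cover there came from domains under that length. The median LAD measured 445 kb, so such domains are common in the list. The median over all coding genes was not computed with this cut. Within 2 Mb the fibrinogen genes had 44.1%, Alb 39.6%, Afp 38.9% and Afm 38.0%, and Gc had 61.7%, beside a median of 32.3% over all coding genes. Within 5 Mb the chromosome 5 genes each had 61.3%, above 80.7% of coding genes. The fibrinogen genes had 33.2% (Fgg), 33.0% (Fga) and 32.9% (Fgb), below the median of 41.6% but inside the quartiles of 26.2% and 56.9%. The fibrinogen values thus went from above the median within 2 Mb to below it within 5 Mb, and those of Alb, Afp and Afm from near the median within 0.5 Mb to above the upper quartile within 5 Mb.

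**Figure D3:**
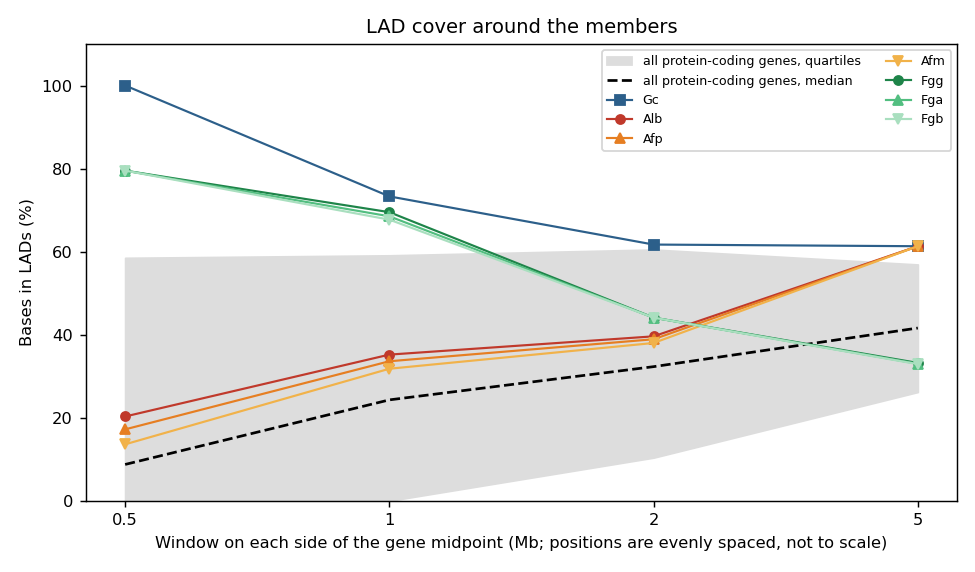
Share of bases in LADs (%) within 0.5, 1, 2 and 5 Mb on each side of each gene, with the median (dashed) and quartiles (grey) over 21130 protein-coding genes. The fibrinogen genes drop from 79.5% to about 33%, whereas Alb, Afp and Afm climb to 61.3% as the window widens.

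Other genes of liver plasma proteins were placed in the same way to show how common each setting was. The 62 genes were grouped as coagulation, transport, apolipoproteins, and complement with acute-phase proteins. Of these, 10 (16.1%) lay in LADs, beside 24.6% of all coding genes. Several of the 62 were neighbours in the same LAD or gap, such as C8a and C8b, so they amount to fewer placements than genes. The 52 outside had a median distance of 837.9 kb from a border, beside 736.1 kb for the 15923 coding genes outside LADs. None of the 62 lay in a gap of at most 250 kb, where 3.65% of coding genes and each fibrinogen gene lay. Hpx, which encodes the heme scavenger hemopexin, was in a gap of 262.5 kb and Cfi, a complement protease, in a gap of 282.5 kb, just above that length.

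Of 18 genes of coagulation, the pathway of fibrinogen, 2 lay in a LAD, namely F9 at 22.7 kb and F13b at 32.0 kb from the border inside. F9 encodes the factor missing in hemophilia B, and F13b the carrier subunit of the enzyme that cross-links fibrin. The other 16 had a median distance of 1377.1 kb, beside 736.1 kb for all coding genes outside LADs, and F11 was nearest, at 40.1 kb. F2, which encodes the thrombin precursor, was 1245.3 kb from a border, and Fgl1, which encodes a fibrinogen-related protein, 260.1 kb.

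Among 15 genes of carrier and transport proteins, 3 lay in LADs. These were Cp (ceruloplasmin, 268.4 kb inside), Serpina6 (the corticosteroid-binding globulin, 109.2 kb) and Serpina7 (the thyroxine-binding globulin, 91.2 kb). Hpx was the nearest of those outside, at 47.2 kb. None of the 10 apolipoprotein genes lay in a LAD, and the nearest was Apoh at 55.9 kb. Of 19 complement and acute-phase genes, 5 lay in LADs. C8b (311.0 kb) and C8a (239.1 kb), neighbours in 1 LAD, encode chains of the same complement component, and C6 was 277.1 kb inside another. Apcs (339.5 kb) and Crp (143.6 kb), which encode pentraxins, shared a LAD. Mbl2, for mannose-binding lectin, was the nearest outside, at 13.8 kb.

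The listed genes most like each neighbourhood were taken by the smallest difference in signed distance to the nearest border, over 62 genes in the 1 merged list. For Gc these were Apcs, C8b and C6, although each lay at least 276.0 kb closer to its border than Gc. No other listed plasma protein gene was as deep in a LAD as Gc. For Alb, Afp and Afm, whose median was 318.7 kb outside, they were Apoc4 (318.6 kb), Apoa2 (313.1 kb) and Apoa1 (306.0 kb). For the fibrinogen genes, with a median of 41.0 kb outside, they were F11 (40.1 kb), Hpx (47.2 kb) and Apoh (55.9 kb). F11 and Apoh were near a border of gaps of 1917.5 kb and 14640.0 kb, so they shared the distance but not the narrow gap of the fibrinogen genes.

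**Figure D4:**
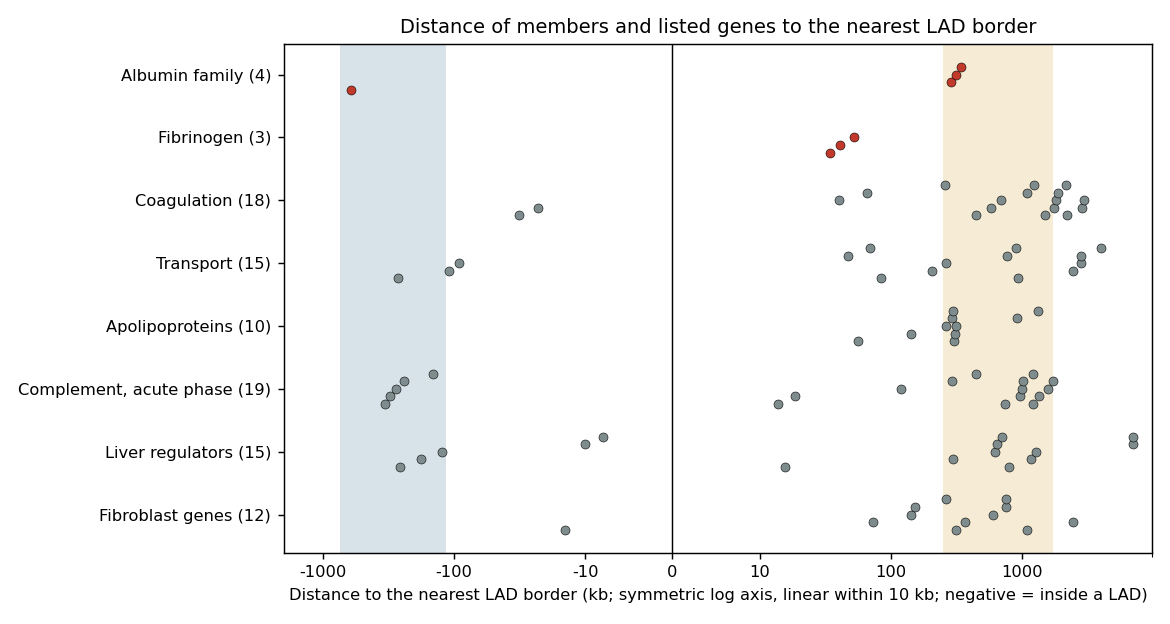
Distance to the nearest LAD border in kb on a symmetric log axis, negative inside and positive outside LADs, for the 7 genes (red) and the listed liver and fibroblast genes (grey), 1 point per gene. Shading spans the quartiles of all protein-coding genes inside (blue) and outside (yellow) LADs, and Gc is farther inside than any other point while the fibrinogen genes lie at 34.4 to 52.8 kb outside.

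Genes that regulate the liver programme were in both settings. Of 15, 5 lay in LADs (33.3%, beside 24.6% of all coding genes): Foxa1 (258.1 kb inside), Prox1 (178.6 kb), Nr1h4 (124.7 kb), Foxa2 (9.97 kb) and Nr5a2 (7.99 kb). Foxa1 and Foxa2 encode forkhead factors that open liver enhancers. Onecut1 was the nearest outside, at 15.6 kb. Zhx2, which encodes a repressor of Afp after birth, was 7098.6 kb from a border, and Zbtb20, another repressor of Afp, 713.7 kb.

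Of 12 fibroblast genes, 1 lay in a LAD (8.33%, beside 24.6% of all coding genes), and the 11 outside had a median distance of 368.2 kb, beside 736.1 kb for all coding genes outside. Fap, which encodes fibroblast activation protein, was the gene inside, 14.2 kb from the border of a LAD of 242.5 kb. Alb, Afp and Afm, at 288.8 to 346.9 kb, had 1 of these genes, Dcn (317.6 kb), within their range, with Lum (263.1 kb) nearer to a border and Fn1 (368.2 kb) farther from it. Pdgfra, at 73.9 kb the nearest of the fibroblast genes outside, was farther from a border than each fibrinogen gene.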

How the data were processed

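Lamin B1 CUT&RUN used 500000 cells per reaction, per the labels' protocols. Bowtie2 and the build mm10 are named in the submitters' processing notes. How LADs were called, and whether IgG or the spike-in entered, is not given in the sources used here. The deposited values are LAD starts and ends in base pairs, and the authors' score column held 0 in every line. That both Lamin B1 libraries were merged was taken from the name of the list. Every LAD length was within 125 bp of a multiple of 2.5 kb, so borders lie on steps of about 2.5 kb. How accurate they are is unknown, since the list has no replicate values. The shortest LAD measured 9999 bp but the smallest gap 52499 bp, so shorter gaps, if there were any, are absent from the list.

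Positions are counted from 1. Genes came from the RefSeq table of GRCm38.p6. Strands and promoters came from the RefSeq promoter table, which gave a single strand for 16985 of the 21130 protein-coding genes and for all 7 genes. The start site was the first base of the gene on that strand. A gene was inside a LAD by its midpoint. Distances run from the nearer gene end to the nearest border and are 0 where a border lies in the gene. Lists were matched by symbol, and C5 through a synonym of Hc. Genes less than 500 kb apart formed 1 neighbourhood. The rule named the 7 genes, coding genes in their intervals and, of each list, genes in LADs, the nearest outside and the 3 most alike; others were named after their values were seen. The genes and lists were chosen with earlier results of these data known, and the motifs after the sequences were read. Some listed genes enter the counts and are not reported here by name. Placement was tested on simulated data. Python 3.11.15 and numpy 2.4.6 were used.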

Additional observations from a re-analysis of the deposited data

How the results depend on the processing

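The count of 1 in 7 genes inside a LAD was the same under 8 of 9 alternatives: the start site, any overlap or the whole gene in place of the midpoint, LADs of at least 100 or 500 kb, gaps of at most 100 kb joined, and LADs grown or shortened by 25 kb at each end. Joining gaps of at most 250 kb gave 4, since it closed the fibrinogen gap of 117.5 kb. The distances then became -648.3 kb for Fgg, -629.7 kb for Fga and -613.5 kb for Fgb, all inside a LAD. Gc, Alb, Afp and Afm kept their distances with LADs filtered or joined, and measuring from the midpoint added up to 20.2 kb. The count of other liver genes in LADs ran from 8 to 11 of 62, with 9 of 49 by the start site, and that of all protein-coding genes from 4538 to 5979 of 21130, with 4174 of 16985 by the start site. Cover within 1 Mb of the fibrinogen genes was 80.9% to 82.6% with those gaps joined. No paired analysis was possible because the LADs form 1 merged list without values per replicate, and no replicate could be left out of it. Read depth is unknown, so how a deeper library would place the borders was not tested.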

Other observations

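The next LAD before the one that holds Gc carried several gene clusters. It ran from 86869538 to 88534531 on chromosome 5, measured 1.66 Mb and held 30 protein-coding genes. Of these, 10 were Ugt2 genes, which encode enzymes that attach glucuronic acid to small molecules such as steroids and, for Ugt2a1 and Ugt2a2, are known mainly from olfactory tissue, at 20.2 to 590.0 kb from a border. Another 3 were Sult1 genes, which encode sulfotransferases, at 643.8 to 706.4 kb. The other 17 included milk casein genes (Csn1s1, Csn2, Csn3), enamel genes (Amtn, Ambn, Enam), salivary genes (Smr2, Smr3a, Prol1) and Jchain, of the antibody joining chain. Between that LAD and the LAD of Gc was a gap of 267.5 kb with 5 coding genes, Utp3, Rufy3, Grsf1, Mob1b and Dck. Dck, which encodes deoxycytidine kinase, was 18.8 kb from a border.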
